A study of Oniscidea with 6 samples.

Results

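Ion channels are membrane proteins that let sodium, calcium, potassium or chloride cross a membrane when voltage, a ligand, temperature or stretch opens them. Sodium and calcium channels depolarise a cell, potassium channels repolarise it, and chloride channels stabilise the resting potential or serve the acidification of endosomes. In the muscle and nervous system of animals they set firing and couple it to contraction.

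The genes described here are the mouse symbols that name voltage-gated calcium channels (Cacna, Cacnb, Cacng), potassium channels (Kcn), voltage-gated sodium channels (Scn), hyperpolarisation-activated channels (Hcn), transient receptor potential channels (Trpa, Trpc, Trpm, Trpv), chloride channels and exchangers (Clcn), anoctamins (Ano) and the stretch-activated Piezo channels. They were matched by symbol alone, as a set picked with earlier results of these data known. They number 187 of the 24421 features in the deposited table. Among them 5 are noncoding or opposite-strand transcripts and 1 is a channel-associated protein. These are not channels and are described apart, but they are included in the totals over all symbols, where Kcnq1ot1 is the 1 that was tested.

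The 6 samples are polyadenylated RNA from fresh tissue of woodlice (Oniscidea, land-living isopod crustaceans), 3 labelled rolling and 3 labelled stretching, with no treatment in either group. Species, strain, sex, age and the tissue taken are not stated in the labels, and neither is whether replicates are separate animals. The p-values below therefore describe the spread among these libraries, which may be technical. Reads were counted under mouse names, with the mouse build mm10 listed by the submitters. A symbol here therefore means reads assigned to that mouse gene, not an established woodlouse channel, and the roles given are those of the mouse or vertebrate protein. In bulk RNA, fewer cells of a type and less RNA per cell cannot be told apart.

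Counted reads numbered 539367, 416821 and 1122154 in libraries 1 to 3 of the rolling group, against 456331, 403971 and 544157 in those of the stretching group. The 187 symbols received 4764, 2109 and 3098 of these in rolling samples and 3554, 2712 and 3072 in stretching samples. That is 0.883%, 0.506% and 0.276% of counted reads in rolling, and 0.779%, 0.671% and 0.565% in stretching. Rolling 3 had the most counted reads and the lowest channel share, and rolling 1 the highest channel share. Values below are normalised read counts, which are reads divided by a size factor for the library. They are not divided by gene length, so each gene is compared with itself between groups and not with other genes. The size factors were 1.90, 0.817 and 0.920 in rolling 1 to 3 and 1.04, 0.883 and 0.903 in stretching 1 to 3. These factors do not follow the counted reads, as rolling 1 has the largest factor and rolling 3 the most reads. Ratios called depth-adjusted below use these factors, not the counted reads. A count of 3 reads in a library, taken as the floor, corresponds to a value between 1.58 and 3.67.

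A read was found under 170 of the 187 symbols. Of these, 116 had reads in both groups, 26 in rolling samples only and 28 in stretching samples only. Reads in all 6 libraries were found for 56. The mean over the 6 samples reached 10, the level for testing, in 41, while 129 had reads but stayed under it. The 17 symbols without a read included the heat-gated Trpv1 and the osmosensitive Trpv4. A count of 0 under a mouse name limits only the reads assigned to that name.

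Of the 41 tested symbols, 14 were higher and 16 lower in rolling samples, by limma at an adjusted p under 0.05 (Benjamini-Hochberg over all 2948 tested features). Those shares, 34.1% and 39.0%, lay close to the 37.8% higher and 37.4% lower of all tested features, 75.2% of which were called in either direction. The groups did not overlap for 32 of the 41, against 78.7% of all tested features. At least 30 reads in one group with at most 3 in the other were found for 8 of the 41, against 24.4% of all tested features. The median log2 fold change was 0.42 over these 41 and 0.10 over all tested features, and the median absolute log2 fold change was 2.17 and 2.82. Tested genes had passed a filter on the mean of both groups, so a gene high in 1 group only could enter through that group. Where a group had no read, as for Trpm5, Ano9 and Kcnk13 in rolling, its values had no spread. The limma p-values of such genes are given as description only.

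**Figure D1:**
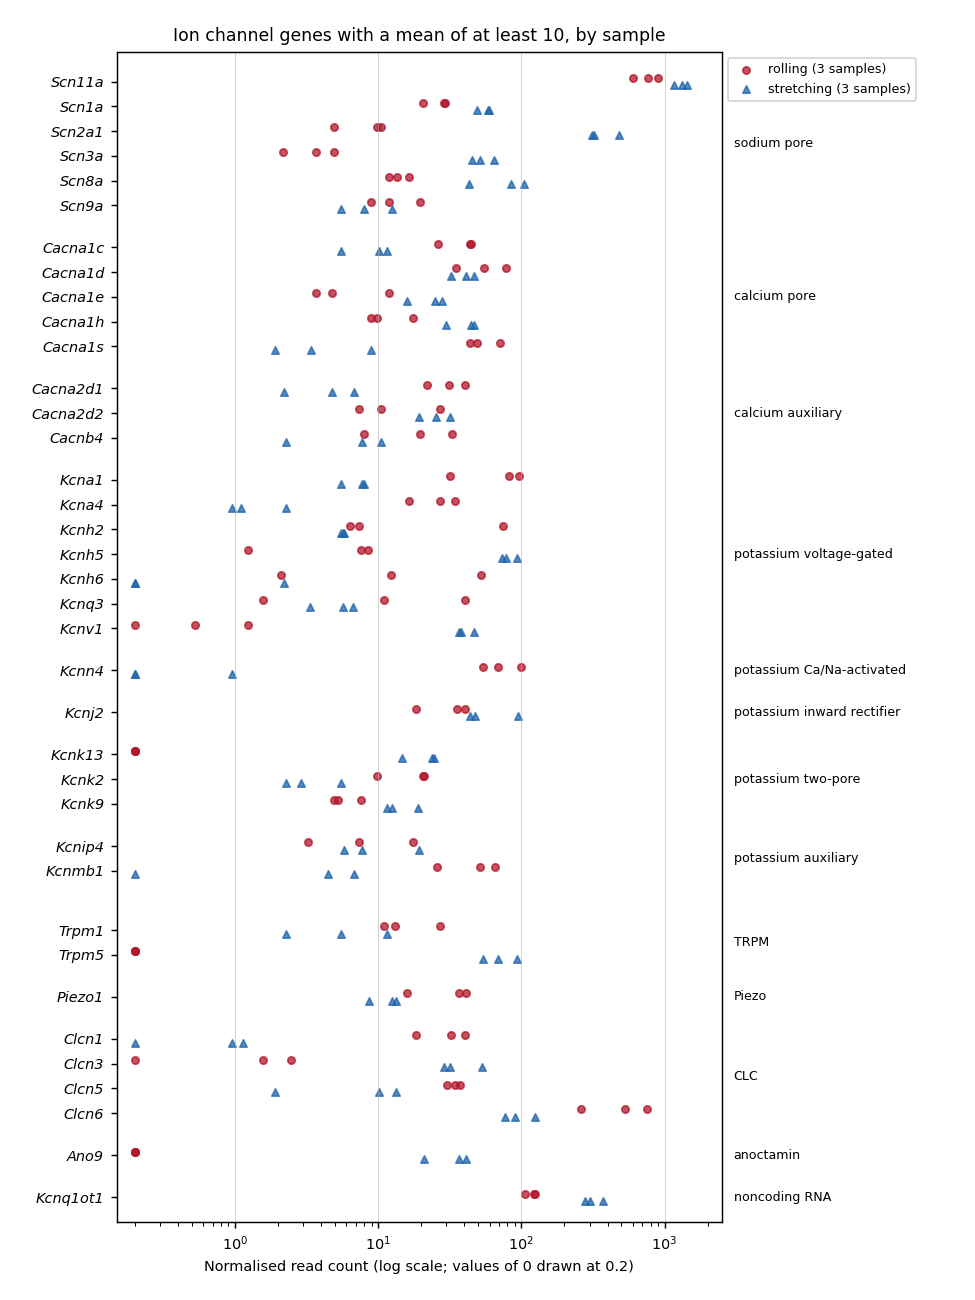
Normalised read counts (log scale) of 37 of the tested genes in each of 3 rolling samples (circles) and 3 stretching samples (triangles), ordered by family, with values of 0 drawn at 0.2. The sodium channel genes Scn1a, Scn2a1, Scn3a and Scn8a lie lower in all rolling samples than in any stretching sample, and Trpm5, Kcnk13 and Ano9 have no read in rolling.

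The called sodium channel pores were lower in rolling samples. The 10 Scn pore genes encode the large subunits that carry the upstroke of the action potential, and 7 reached the level for testing. Of these, 5 fell, none rose and 2 did not pass the test, beside 75.2% called and 37.4% lower among all tested features. With so few genes nothing particular to the family can be read from that count.

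Scn2a1, a channel of central neurons and their axons in the mouse, had 10.5, 4.90 and 9.78 in rolling samples, against 480, 319 and 311 in stretching samples. All rolling values lay under the lowest stretching value, which was many times higher. The log2 fold change was -5.33 (SE 0.39, adjusted p 3.5e-06 by limma), resting on 33 reads in rolling and 1064 in stretching. Scn3a, a channel of developing neurons, had 3.69, 4.90 and 2.17 in rolling and 51.7, 64.5 and 45.4 in stretching, with a log2 fold change of -3.61 (SE 0.40, adjusted p 3.5e-05 by limma).

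Scn8a, which is concentrated at nodes of Ranvier, had 16.3, 13.5 and 12 in rolling and 85.3, 43.0 and 104 in stretching. The groups were separate, with a log2 fold change of -2.31 (SE 0.42, adjusted p 0.00075 by limma). Scn1a, a channel of inhibitory neurons, fell less, with 29.0, 29.4 and 20.6 in rolling and 48.9, 58.9 and 59.8 in stretching. Its log2 fold change was -1.07 (SE 0.34, adjusted p 0.016 by limma), but it missed the threshold in edgeR's quasi-likelihood test (adjusted p 0.065), in DESeq2 (0.058), with scaling to library totals (0.14) and without the filter (0.053).

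Scn11a, a channel of pain-sensing neurons, took most of the reads of the family. It stood at 601, 764 and 896 in rolling samples and at 1329, 1168 and 1446 in stretching samples. Although the groups did not overlap, its log2 fold change of -0.82 (SE 0.40) missed the threshold (limma adjusted p 0.093), and passed with TMM scaling (0.048). Scn9a, another channel of sensory neurons, had 13.5 ± 5.48 in rolling and 8.64 ± 3.51 in stretching (SD, n = 3 each), with overlapping values (limma adjusted p 0.28).

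Among the sodium pores under the level for testing, Scn10a of sensory neurons had 7 reads in rolling and 47 in stretching, the same side as the called genes. Scn4a, the sodium channel of skeletal muscle, lay on the other side. It had 10.01, 8.57 and 16.3 in rolling against 0.958, 0 and 0 in stretching, with 41 reads against 1, a depth-adjusted ratio of 31.9 (95% counting interval 5.42 to 1291). Scn7a had 20 reads in rolling and 12 in stretching, with overlap between groups. The auxiliary subunit Scn4b had 5 reads in rolling and 2 in stretching.

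Summed over the 10 pore genes, the normalised count averaged 845 ± 145 in rolling and 1944 ± 201 in stretching (SD, n = 3 each). Without Scn11a it averaged 90.9 ± 3.44 in rolling and 630 ± 97.7 in stretching. Within the reads of the family, Scn2a1 made up 1.52%, 0.571% and 0.996% in rolling and 23.2%, 18.7% and 15.1% in stretching. The share of Scn11a was 86.6%, 89.1% and 91.2% in rolling and 64.4%, 68.3% and 70.3% in stretching. Scn genes are close paralogues, and the sources used here do not say how reads that match several of them were assigned, so the split between members is uncertain.

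**Figure D2:**
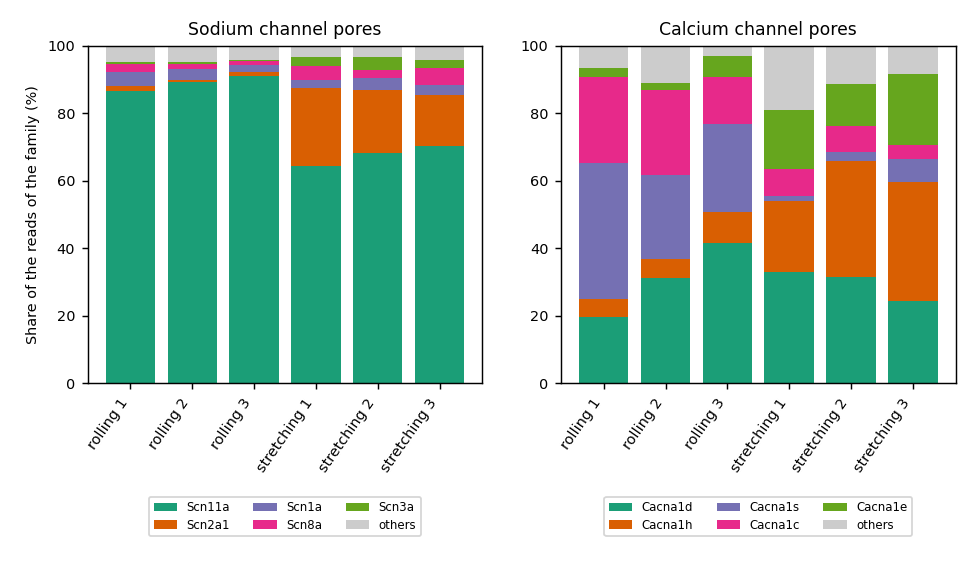
Share (%) of the reads of each family in every library, for sodium channel pores and calcium channel pores, with 5 members of high mean share named and the rest in grey. Scn2a1 and Cacna1h take a larger share in each stretching library than in any rolling library, and Cacna1s the reverse.

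The calcium channel pores moved in both directions. Of the 10 Cacna1 genes, which form the pore and sense voltage, 5 were tested, 2 of them higher and 2 lower in rolling samples. Of all tested features 37.8% were higher and 37.4% lower, so these few genes show nothing particular to the family. Cacna1s, the voltage sensor that couples excitation to contraction in skeletal muscle, had 71.2, 44.1 and 48.9 in rolling, against 1.92, 3.40 and 8.86 in stretching. Every rolling value was above every stretching value, and the log2 fold change was 3.44 (SE 0.51, adjusted p 0.00022 by limma). Cacna1c, the L-type channel of heart and smooth muscle, had 44.8, 44.1 and 26.1 in rolling and 11.5, 10.2 and 5.54 in stretching, a log2 fold change of 1.98 (SE 0.42, adjusted p 0.0022 by limma).

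The 2 pores that fell were Cacna1h and Cacna1e. Cacna1h, a low-voltage-activated T-type channel, had 8.96, 9.79 and 17.4 in rolling and 29.7, 44.2 and 46.5 in stretching, a log2 fold change of -1.69 (SE 0.40, adjusted p 0.0040 by limma). Cacna1e, the R-type channel of neurons, had 4.74, 3.67 and 12 in rolling and 24.9, 15.9 and 27.7 in stretching, a log2 fold change of -1.72 (SE 0.49, adjusted p 0.010 by limma). Cacna1d, an L-type channel of pacemaking and hair cells, averaged 56.0 ± 21.7 in rolling and 39.9 ± 7.44 in stretching (SD, n = 3 each) and was not called (limma adjusted p 0.35). Cacna1a, the P/Q-type channel of nerve terminals, had only 2 reads in rolling and 14 in stretching.

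Auxiliary calcium channel subunits steer the pore to the membrane and tune its gating. Cacna2d1, an extracellular subunit abundant in skeletal muscle, had 31.1, 22.0 and 40.2 in rolling and 4.79, 6.79 and 2.22 in stretching, a log2 fold change of 2.57 (SE 0.47, adjusted p 0.00081 by limma). Neither Cacna2d2, with 15 ± 10.6 in rolling and 25.4 ± 6.27 in stretching, nor the intracellular subunit Cacnb4, with 20.2 ± 12.6 in rolling and 6.85 ± 4.21 in stretching (SD, n = 3 each), passed the test (adjusted p by limma 0.14 and 0.072). The calls of both depended on a library. Cacna2d2 was lower in rolling without rolling 3 (log2 fold change -1.40; limma adjusted p 0.018), and Cacnb4 was higher without rolling 1 (1.94; limma adjusted p 0.032) and by edgeR (adjusted p 0.032). The other subunits of the skeletal muscle complex had hardly a read, Cacnb1 with 0 in rolling and 3 in stretching and Cacng1 with 1 and 0.

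Potassium channels were the largest group, with 94 symbols, 83 with reads and 15 tested, of which 6 rose and 5 fell. These counts stand beside 37.8% higher and 37.4% lower of all tested features. The voltage-gated pores split evenly, with 3 higher and 3 lower of 8 tested. Kcna1, a Shaker-type channel that shortens action potentials, had 31.6, 96.7 and 81.5 in rolling, against 7.67, 7.93 and 5.54 in stretching. Kcna4, a rapidly inactivating Shaker-type channel, had 16.3, 34.3 and 27.2 in rolling and 0.958, 2.26 and 1.11 in stretching. The groups were apart for both, and the log2 fold changes were 3.01 (SE 0.48, adjusted p 0.00035 by limma) and 3.44 (SE 0.44, adjusted p 9.3e-05 by limma).

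In the opposite direction, Kcnh5, an ether-a-go-go type channel, had 8.43, 1.22 and 7.61 in rolling and 73.8, 92.8 and 78.7 in stretching. Its log2 fold change was -3.87 (SE 0.56, adjusted p 0.00021 by limma), and -3.19 without rolling 2. Kcnv1, a silent subunit that alters other potassium channels, had 0.527, 1.22 and 0 in rolling and 36.4, 46.4 and 37.7 in stretching, with 2 reads against 113. The depth-adjusted ratio, stretching over rolling, was 72.6 (95% counting interval 19.6 to 607; limma adjusted p 1.0e-05). Kcnb2, a delayed rectifier under the level for testing, had 9 reads in rolling and 31 in stretching.

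In the voltage-gated group, Kcnh2, Kcnh6 and Kcnq3 were set apart by 1 library. Kcnh2, the channel that ends the cardiac action potential, had 6.32, 7.35 and 73.9 in rolling and 5.75, 5.66 and 5.54 in stretching. Kcnh6, its close relative, had 2.11, 12.2 and 52.2 in rolling and 0, 0 and 2.22 in stretching. Kcnq3, a subunit of the M-current, had 1.58, 11 and 40.2 in rolling and 6.71, 5.66 and 3.32 in stretching. In all 3 genes rolling 3 was the highest sample, and rolling 1 overlapped or nearly touched the stretching values. Each reached the level for testing only through rolling 3. Without that sample they fell under it and were not fitted, so a call without rolling 3 was not tested. Kcnh6 was called (log2 fold change 3.14, SE 0.94; limma adjusted p 0.013), with 4.17 without rolling 1 and no call without rolling 2 (limma adjusted p 0.053), stretching 1 (0.061) or stretching 2 (0.068). Kcnh2 was not called (limma adjusted p 0.17) but passed by DESeq2 (0.044), and Kcnq3 (limma adjusted p 0.40) passed only without rolling 1 (0.033) among the alternatives run.

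Calcium- and sodium-activated potassium channels link these ions to repolarisation. Kcnn4, the calmodulin-gated channel of red and immune cells and epithelia, had 100.1, 53.9 and 68.5 in rolling and 0.958, 0 and 0 in stretching. It rested on 297 reads against 1, a depth-adjusted ratio of 231 (95% counting interval 41.2 to 9164; limma adjusted p 4.4e-06). Kcnmb1, the accessory subunit of the large-conductance calcium-activated channel in smooth muscle, had 65.4, 25.7 and 51.1 in rolling and 0, 6.79 and 4.43 in stretching. Its log2 fold change was 3.70 (SE 0.76, adjusted p 0.0017 by limma), and 2.80 without stretching 1. The pore it serves, Kcnma1, stayed under the level for testing with 26 reads in rolling and 4 in stretching. Kcnt2, a sodium-activated channel, also stayed under it and lay on the other side, with 2 rolling and 37 stretching reads, a ratio of 23.8 stretching over rolling (95% counting interval 6.13 to 204).

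K2P channels carry the background leak that sets the resting potential, and of 3 tested 1 rose and 2 fell. Among all tested features 75.2% were called. Kcnk2, which opens with membrane stretch, had 20.6, 20.8 and 9.78 in rolling and 2.87, 2.26 and 5.54 in stretching, a log2 fold change of 1.98 (SE 0.48, adjusted p 0.0041 by limma). Kcnk13, a leak channel of microglia among other cells, had no read in rolling and 24.0, 14.7 and 24.4 in stretching, at least 25.7-fold lower in rolling, with the floor of 3 reads taken for the whole rolling group (limma adjusted p 5.8e-06). Kcnk9, an acid-sensitive leak channel, had 5.93 ± 1.47 in rolling and 14.3 ± 3.99 in stretching (SD, n = 3 each; limma adjusted p 0.030). Its call was lost without rolling 1 (limma adjusted p 0.068), without rolling 2 (0.064), by DESeq2 (0.17), with scaling to library totals (0.13) and without the filter (0.069). Below the level for testing, Kcnk10, a relative of Kcnk2, had 5 reads in rolling and 38 in stretching, and Kcnk15 had 31 in rolling and 0 in stretching.

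Inward rectifiers, which hold the resting potential, had 1 tested member. Kcnj2, of skeletal and heart muscle, had 18.4, 35.5 and 40.2 in rolling and 44.1, 47.6 and 94.2 in stretching, separate groups that did not pass the test (limma adjusted p 0.082; 0.050 with TMM scaling, just past the threshold). Kcnj6, opened by G proteins, had 46 reads in rolling and 3 in stretching, a depth-adjusted ratio of 11.9 (95% counting interval 3.84 to 60.0). Kcnip1 and Kcnip4 bind A-type potassium channels. Kcnip1 had 30 reads in rolling and 9 in stretching, under the level for testing. Kcnip4 averaged 9.33 ± 7.27 in rolling and 10.9 ± 7.28 in stretching (SD, n = 3 each; limma adjusted p 0.69).

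Of the 6 tested chloride genes, 4 rose and 2 fell, beside 75.2% called and 37.8% higher among all tested features. So few genes show nothing particular to chloride channels by that count. Clcn6, an endosomal chloride/proton exchanger of neurons, had 528, 260 and 753 in rolling and 91.0, 125 and 76.4 in stretching, a log2 fold change of 2.29 (SE 0.46, adjusted p 0.0015 by limma). Clcn1, the channel that stabilises the resting potential of skeletal muscle, had 32.2, 40.4 and 18.5 in rolling and 0.958, 1.13 and 0 in stretching. It rested on 111 reads against 2, a depth-adjusted ratio of 43.2 (95% counting interval 11.7 to 361; limma adjusted p 4.0e-05).

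The endosomal exchangers did not move as a group. Clcn5, which works in endosomes of the kidney, had 37.4, 34.3 and 30.4 in rolling and 1.92, 10.2 and 13.3 in stretching, a log2 fold change of 2.17 (SE 0.59, adjusted p 0.0081 by limma) that was 1.47 without stretching 1. Clcn3, found in endosomes and synaptic vesicles, had 1.58, 2.45 and 0 in rolling and 31.6, 53.2 and 28.8 in stretching, a log2 fold change of -4.18 (SE 0.55, adjusted p 0.00010 by limma). Clcn4-2 and the lysosomal exchanger Clcn7 had few reads, with 1 and 0 in rolling and 12 and 5 in stretching.

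Anoctamins are calcium-activated chloride channels and lipid scramblases. Ano9, a scramblase of epithelia, had no read in rolling and 36.4, 40.8 and 21.0 in stretching, at least 39.8-fold lower in rolling (limma adjusted p 4.6e-06). The untested Ano1, the calcium-activated chloride channel of secretory epithelia and gut pacemaker cells, had 69 reads in rolling and 3 in stretching, a depth-adjusted ratio of 17.9 (95% counting interval 5.88 to 89.0). Ano7 had 53 reads in rolling and 4 in stretching. Ano2, a channel of olfactory neurons, had 14 in rolling and 28 in stretching. The summed counts of the 10 anoctamins overlapped between groups, with 55.2 ± 6.16 in rolling and 62.7 ± 17.0 in stretching (SD, n = 3 each).

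TRP channels respond to temperature, chemicals and second messengers, and only 2 of 22 had enough reads to be tested. Trpm5, the calcium-activated cation channel of taste transduction, had no read in rolling samples and 69.0, 94.0 and 54.3 in stretching samples, with 204 reads. It was at least 87.3-fold lower in rolling (limma adjusted p 2.0e-06). Trpm1, the channel of retinal bipolar cells, had 17.0 ± 8.65 in rolling and 6.43 ± 4.68 in stretching (SD, n = 3 each), with overlap, and missed the threshold (limma adjusted p 0.055). It passed by edgeR (0.039) and without stretching 1 (0.025).

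Among the untested TRP genes, Trpm3, a heat-activated channel, had 43 reads in rolling and 7 in stretching, and the magnesium channel Trpm6 had 31 and 5. Their depth-adjusted ratios were 4.78 (95% counting interval 2.13 to 12.6) and 4.83 (1.86 to 15.9). Neither was called in the authors' deposited table (adjusted p 0.097 and 0.082). The irritant receptor Trpa1 had 1 read in rolling and 5 in stretching, and the calcium channel Trpv5 had 0 and 10, of which 9 lay in stretching 2. Trpc1 had 7 and 19 reads.

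Piezo1, the channel opened by membrane stretch in vessels and red cells, had 36.9, 15.9 and 41.3 in rolling and 8.62, 12.5 and 13.3 in stretching. Its log2 fold change was 1.29 (SE 0.45, adjusted p 0.027 by limma), with rolling 2 close to the stretching values. The call did not hold without rolling 1 (limma adjusted p 0.090), rolling 3 (0.089), stretching 1 (0.095) or stretching 2 (0.059), with scaling to library totals (0.19), without the filter (0.052) or by DESeq2 (0.056). Piezo2, the touch channel of sensory neurons, had 42 reads in rolling and 16 in stretching, with overlapping values. The pacemaker channel Hcn2 had no read in rolling and 56 in stretching, at least 24.0-fold lower in rolling.

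**Figure D3:**
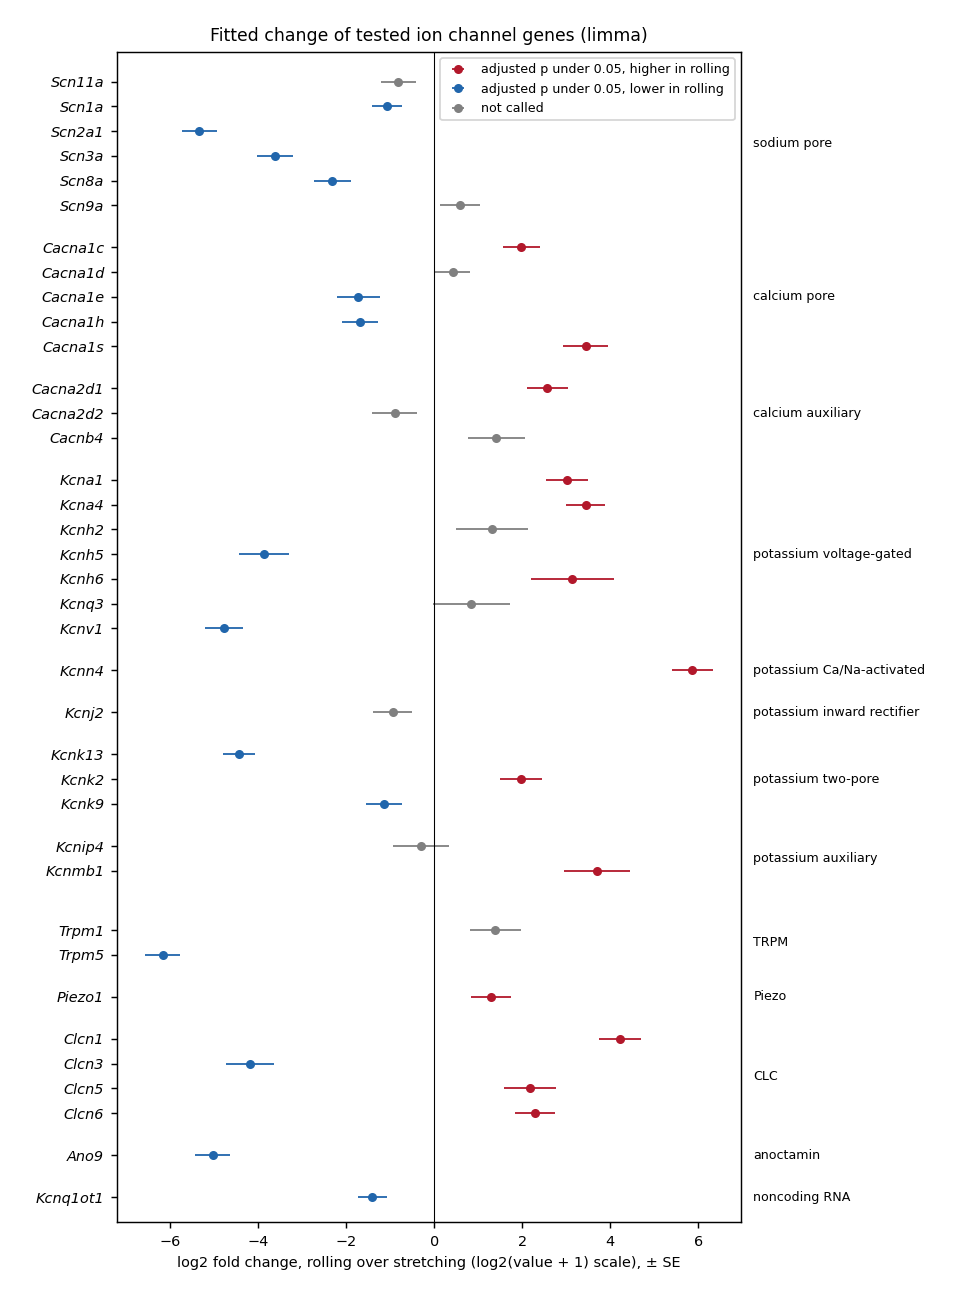
Fitted log2 fold change, rolling over stretching, with its standard error, for 37 of the tested genes by family, red where higher and blue where lower at an adjusted p under 0.05 and grey where not called. No sodium pore drawn is red, while calcium, potassium and CLC genes lie on both sides of 0.

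The 1 noncoding RNA that reached the level for testing was Kcnq1ot1, which is transcribed antisense to Kcnq1 and silences neighbouring genes in the mouse. It had 123, 107 and 125 in rolling and 370, 277 and 300.2 in stretching, a log2 fold change of -1.40 (SE 0.33, adjusted p 0.0036 by limma). Kcnq1 itself had 1 read in all, in rolling 1. Whether counting used the strand is not stated, so reads of this antisense pair cannot be told apart. The associated protein Trpc4ap had 0 reads in rolling and 9 in stretching.

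Of the 129 symbols with reads under the level for testing, 45 had at least 20 reads. The groups did not overlap for 23 of these (51.1%), beside 59.3% of all features with a mean under 10 and at least 20 reads. With 45 symbols, nothing particular to channels can be read from that difference. Of the 23, 15 were higher and 8 lower in rolling, and the shares by direction over all such features were not computed. The authors' deposited table, which gives an adjusted p to 117 channel symbols, called 44 of them at 0.05, 23 higher and 21 lower, against 37.2% called of all features with an adjusted p. Of those 44, 17 had a mean under 10. By edgeR's quasi-likelihood test on the whole reads, 29 of 36 fitted channel symbols were called, against 74.3% of all features it fitted. In the authors' deposited table Scn4a, Scn10a, Hcn2, Ano1, Ano7, Kcnj6, Kcnk10, Kcnk15 and Kcnt2 were among these 17, with adjusted p-values of 0.0042, 0.0079, 2.0e-05, 0.0033, 0.0043, 0.0088, 0.0064, 0.0038 and 0.0049. Not called there were Kcnb2 (adjusted p 0.074), Trpm6 (0.082), Trpm3 (0.097), Kcnma1 (0.18), Ano2 (0.19) and Kcnip1 (0.33), although their groups did not overlap either.

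**Figure D4:**
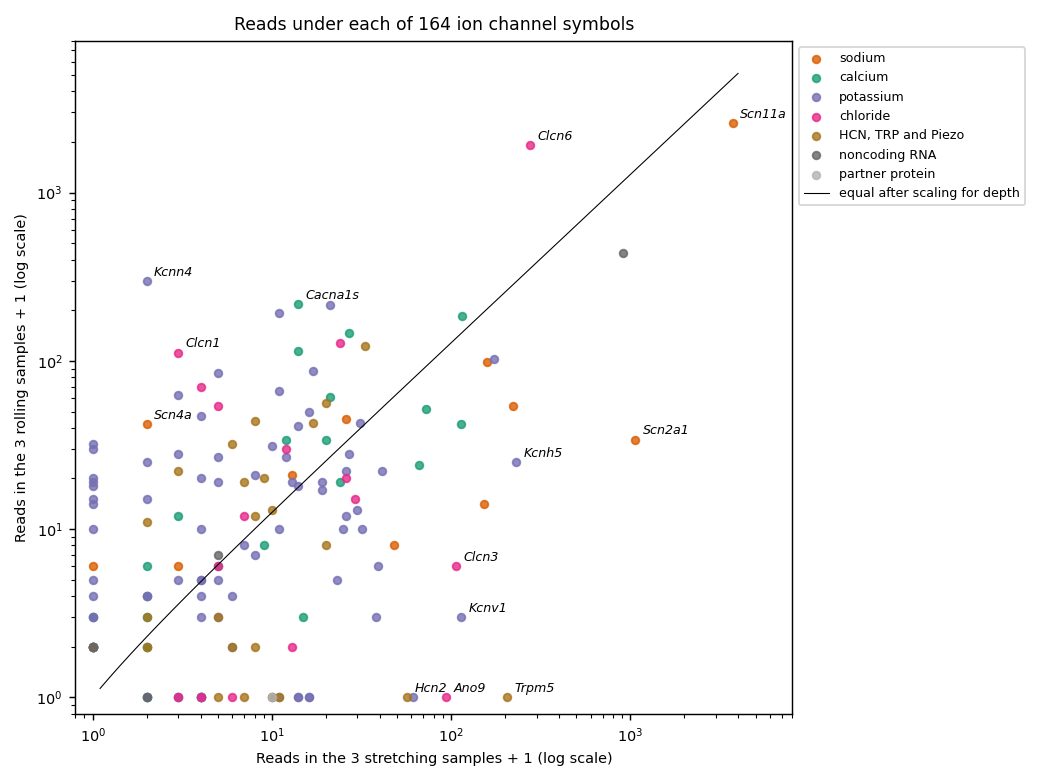
Reads in the 3 rolling samples against reads in the 3 stretching samples (both + 1, log scales) for 164 channel symbols with reads, coloured by ion. The line shows where values would be equal after scaling for depth by the size factors. Trpm5 (0 reads in rolling, 204 in stretching) lies on the lower edge, and Scn11a and Clcn6 have the most reads.

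Channels and channel partners outside these families were read from a list of 97 further genes, 93 of them in the table and 20 tested. Of these 5 rose, 10 fell and 5 were not called, with a median log2 fold change of -1.03. Over all tested features 37.8% were higher and 37.4% lower, with a median of 0.10. The share called is near the 75.2% of all tested features. With 20 genes from a chosen list, the split by direction shows nothing particular to them. Partners of sodium channels stood on both sides. Fgf14, an intracellular factor that binds sodium channels, had 601, 1119 and 2503 in rolling and 7.67, 2.26 and 4.43 in stretching, a log2 fold change of 7.80 (SE 0.57, adjusted p 3.4e-06 by limma). Ank3, which anchors sodium channels at the axon initial segment, had 351, 199.6 and 259.7 in rolling and 13.4, 2.26 and 4.43 in stretching. Its log2 fold change was 5.38 (SE 0.55, adjusted p 2.0e-05 by limma), and 5.97 without stretching 1. Fgf12, a relative of Fgf14 picked out after its values were seen, had 12 reads in rolling and 49 in stretching and fell (log2 fold change -2.16, SE 0.56, adjusted p 0.0059 by limma).

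Most of the other called genes of that list were lower in rolling. Tmem63a and Tmem63b, osmotically and mechanically gated cation channels, had 1 and 3 reads in rolling and 898 and 324 in stretching. Their depth-adjusted ratios, stretching over rolling, were 1153 (95% counting interval 206 to 45607) and 139 (47.0 to 676). The third member of that family, Tmem63c, stood on the other side, with 51 reads in rolling and 0 in stretching, under the level for testing. Scnn1a, the pore subunit of the epithelial sodium channel, Asic4, of the acid-sensing family, and Lrrc8e, of the volume-regulated anion channel, had no read in rolling and were at least 74.5-fold, 42.0-fold and 35.1-fold lower there. Other subunits of the volume-regulated channel went the other way. Lrrc8a had 50.1, 17.1 and 94.6 in rolling and 4.79, 6.79 and 13.3 in stretching and rose (log2 fold change 2.37, SE 0.63, adjusted p 0.0073 by limma), while Lrrc8b had 54 reads in rolling and 5 in stretching and Lrrc8d 23 and 0. The lysosomal channel Mcoln2 had 2 reads in rolling and 151 in stretching, and the photoreceptor subunit Cngb3 had 1 and 77. Mcoln3, a relative of Mcoln2, stood on the other side, with 14 reads in rolling and 1 in stretching, under the level for testing. Clic4, a chloride intracellular channel protein, was at least 39.2-fold higher in rolling.

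Muscle and neuron markers were read beside these genes. The summed normalised count of 27 sarcomere and muscle genes was 16306, 30252 and 70587 in rolling and 14498, 15167 and 12027 in stretching, with 3 of 7 tested higher and 1 lower in rolling, and with no read under 8 of them, troponins such as Tnnt1 and Tnni1 and the kinase Ckm included. The sum of 22 neuron and synapse genes was 775, 1421 and 1048 in rolling and 89.1, 117 and 105 in stretching, with all 4 tested higher in rolling and Slc18a3 at 0. Among all tested features 75.2% were called and 37.8% were higher. Counts of calls over so few genes therefore show nothing particular to either list. The part of these markers in the channel values was not tested.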

How the data were processed

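Per the labels, 6 polyadenylated RNA libraries were compared, 3 rolling and 3 stretching. The deposited table gives a signal per gene and sample, normalised by the authors, and its columns headed curl and strait were matched to rolling and stretching from what these words mean. It also holds the authors' deposited log2 fold changes, their standard errors, a test score and p-values. Per the submitters' processing notes, BWA, DESeq2 and mm10 are named for this series; their versions and roles, the counting program and the annotation are not stated there. Taking the smallest positive value of a column as 1 read gave whole reads for 100.0% of values, within 1e-06.

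Groups were compared on log2(value + 1) with limma 3.58.1 (R 4.3.3, trended variance, two-sided, Benjamini-Hochberg adjustment) for features whose mean reached 10. Fold changes on this scale understate the change of low genes. Depth-adjusted ratios, given for some genes with few reads in a group, use reads divided by summed size factors, with exact 95% binomial intervals, and a group without reads was set to a floor of 3 reads over the group. Intervals and floors cover counting error only. edgeR 4.0.16 and DESeq2 1.42.0 on the whole reads were alternatives, with other pseudocounts (0.5, 8), filters (none, a mean of 30), scalings, left-out samples and a replicate block. The DESeq2 run repeated the authors' deposited results almost exactly, so it is not a separate analysis from theirs. The limma and edgeR procedures, but not DESeq2, were tested on simulated data, in which far fewer features changed than were called here.

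The members, lists and tests were chosen with earlier results of these data known. The genes named are all with a mean of at least 10, up to 15 below it with at least 20 reads and no overlap between groups, 1 for each family otherwise unnamed, and up to 10 called genes of the wider list. A few others, such as partners of named genes, were added after their values were seen. Sequences of these genes were not used here, and a few members are counted in the totals but not reported singly here.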

Additional observations from a re-analysis of the deposited data

How the results depend on the processing

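Of the 30 called symbols, 25 kept their call and direction in every alternative that could be fitted. The 5 that lost it in at least 1 included Kcnh6, Kcnk9, Piezo1 and Scn1a, and 7 uncalled genes passed in at least 1. The count of 30 called (14 higher, 16 lower) was 34 with TMM scaling, 28 with library totals, 29 of 36 by edgeR and 26 to 31 with a sample left out. It was 65 (32 higher, 33 lower) without a filter, where 170 genes were tested, and 10 (4 higher, 6 lower) with a minimum mean of 30, where 13 were. By DESeq2, which gave an adjusted p to 117 and repeats the authors' deposited results, 23 were higher and 21 lower. The 15 calls of the wider list became 35, 7 and 28 under these 3 settings. More or fewer genes enter the test under each. The log2 fold change of Kcnip4, not called at -0.29, was between -0.62 and 0.22 with a sample left out, turning positive without rolling 3, and the cause was not tested. Over all tested features the median log2 fold change was 0.10, and -0.04 and -0.07 with TMM and library totals, so small changes shift by that much. With the replicate number as a block, 30 genes were called, 15 higher and 15 lower, with Trpm1 gained and Kcnk9 (adjusted p 0.060) lost. Deviations of samples with the same number correlated at 0.021, -0.0066 and 0.0087 across genes. No pairing by number was seen, but with 3 samples in each group these values cannot exclude it. Over the tested genes with at least 20 reads in a group, the median coefficient of variation was 38.8% in rolling and 26.0% in stretching, where counting alone gives 19.1% and 16.8%.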

Other observations

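Channels known for a role in skeletal muscle of vertebrates were grouped after their values were seen, so their directions are a description only. Cacna1s, Cacna2d1 and Clcn1 were called higher in rolling, and Scn4a and the fast potassium channel Kcnc4 had 41 and 17 reads in rolling against 1 and 0 in stretching. Kcna7, a muscle potassium channel, had 9 reads in rolling and 0 in stretching. Kcnj2, with 101 reads in rolling and 173 in stretching, was not called, and Cacnb1, Cacng1, Kcnj11 and Kcnj12 had at most 5 reads in either group. Ano5 had 29 reads in rolling and 11 in stretching, with overlapping values. The called sodium pores lay on the lower side, the side opposite to Scn4a.

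Partners of single channels were also looked up. Ostm1, the partner of Clcn7, had 12 reads in rolling and 1 in stretching, and Clcn7 had 0 and 5, few reads for both. Of the sodium leak complex, Nalcn had 25.0 ± 11.3 in rolling and 12.5 ± 4.98 in stretching (SD, n = 3; limma adjusted p 0.10), Unc79 rose with a log2 fold change of 1.51 (SE 0.37, adjusted p 0.0048 by limma), and Unc80 had 1 read in rolling and 23 in stretching. For store-operated calcium entry, the sensors Stim1 and Stim2 stood on opposite sides, with 32 and 6 reads in rolling and 2 and 104 in stretching.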
